A study of Mus musculus with 57 samples.

Results

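The collagen chain genes of the mouse kidney were examined in lupus nephritis, as the 39 of 16475 measured genes whose symbol in the deposited tables has the form of a collagen alpha chain (Col, a type number, a and a chain number). Of these, 11 were classed as fibrillar, 8 as basement membrane and 20 as other collagens. The study measured RNA from whole kidneys of 3 lupus-prone mouse strains on 57 Affymetrix arrays. NZB/W kidneys formed 4 groups, prenephritic at 16 weeks (n = 8), non-proteinuric at 23 weeks (n = 11), at the onset of proteinuria at 23 weeks (n = 6) and nephritic at 36 weeks (n = 10). NZM2410 kidneys were nephritic, titled as sick (n = 5), or prenephritic, titled as young (n = 5), and NZW/BXSB kidneys were nephritic with proteinuria (n = 6) or prenephritic without it (n = 6). No age in weeks was given for NZM2410 or NZW/BXSB, no treatment was named for any group, and no strain without lupus was included. For the 36-week kidneys 1 label field said prenephritic and another nephritic with proteinuria, and the second was followed here. Whether each array is a different mouse is not stated in the labels; the p-values below therefore rest on array-to-array spread, part of which may be technical.

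Collagens are proteins of 3 chains wound into a helix. Fibrillar types I, III and V assemble into the fibres of the interstitium and of scar tissue. Type IV chains build the network of basement membranes, in which the alpha 1 and alpha 2 chains are found in nearly all basement membranes while the alpha 3, alpha 4 and alpha 5 chains form the network of the mature glomerular basement membrane, made by podocytes. The remaining types link fibres to cells, coat fibres or span cell membranes. In the kidney, fibroblasts and pericytes are the main known source of fibrillar collagen in fibrosis.

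Start-site sequence is shown for 2 fibrillar genes that rose together in the nephritic kidneys of 2 strains, Col3a1 and Col1a2, the sole chain of type III and the second chain of type I collagen. Each is given as the 250 bases before the annotated start in RefSeq's mouse assembly GRCm38.p6, 5′ to 3′ on the plus strand, with capitals marking 3 promoter motifs searched on both strands. The TATA box was searched as TATAAA. The CCAAT box was searched by the letters of its name, and the GC box was searched as GGGCGG. The Col3a1 stretch is chr1:45311288-45311537 and the Col1a2 stretch is chr6:4505368-4505617, and neither overlaps a gene annotated in that assembly.
Col3a1: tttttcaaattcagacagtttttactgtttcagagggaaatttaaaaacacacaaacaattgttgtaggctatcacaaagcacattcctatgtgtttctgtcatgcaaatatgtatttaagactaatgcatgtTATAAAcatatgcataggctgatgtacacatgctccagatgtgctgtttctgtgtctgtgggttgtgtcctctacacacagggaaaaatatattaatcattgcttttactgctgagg
Col1a2: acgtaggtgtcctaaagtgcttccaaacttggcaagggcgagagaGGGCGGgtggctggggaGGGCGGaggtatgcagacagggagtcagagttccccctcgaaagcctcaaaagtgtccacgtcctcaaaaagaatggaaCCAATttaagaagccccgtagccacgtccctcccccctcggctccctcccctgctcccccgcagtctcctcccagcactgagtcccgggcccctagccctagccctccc
The Col3a1 stretch held a TATAAA that begins 117 bases before the start and no CCAAT or GGGCGG. The Col1a2 stretch held a CCAAT 109 bases before the start and GGGCGG at 205 and 188 bases, and no TATAAA. Both stretches held CAGAC or its reverse complement (SMAD box, searched on both strands and not capitalised), with 2 matches for Col3a1 and 1 for Col1a2. Stretches of the same 250 bases were found for 31 of the 39 collagens, and CCAAT was present in 11, TATAAA in 5, GGGCGG in 18 and CAGAC in 12 of them. Over all 32536 different stretches of this kind in the table, CCAAT was present in 33.8%, TATAAA in 12.3%, GGGCGG in 33.0% and CAGAC in 42.2%. The windows of 300 bases around the starts of Col4a1 and Col4a2, a pair of genes that start back to back on opposite strands, shared 78 bases.

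Values are log2 levels as deposited, so that a difference of 1 is a doubling, and levels of different genes are not compared. Changes are log2 differences ± standard error from limma with Benjamini-Hochberg adjusted p-values over all genes of a strain's table, and a gene was called at an adjusted p under 0.05. Array medians lay between 6.97 and 7.06 for NZB/W arrays and between 7.12 and 7.20 for NZM2410 arrays. For NZW/BXSB arrays they lay between 7.68 and 7.75. Normalization between arrays makes medians alike, so they cannot show whether an array stands apart. The mean signal of the spiked hybridization controls was 10.92 in 16-week replicate 4, against a group median of 9.94. In 36-week replicate 1 it was 10.88, against a group median of 9.85. Strains are compared only through changes within each table, because the tables may have been normalized separately. The authors' flag for expression above their baseline covered 30 collagens for NZB/W, 29 for NZM2410 and 35 for NZW/BXSB. Whole kidney is a mixture, so fewer cells of a type and less RNA per cell cannot be told apart. Of 8 adrenal cortex and 6 perirenal adipocyte markers, none was called in any comparison. The adrenal median change was 1.55 in non-proteinuric 23-week against 16-week kidneys, and -0.995 at onset against non-proteinuric kidneys. Adrenal marker means ran from 5.33 to 10.48 in non-proteinuric 23-week kidneys. The adipocyte median change was -0.84 in NZM2410 and -0.14 in NZW/BXSB. The part of such tissue in the collagen changes was not tested. Nephritic NZB/W kidneys were 36 weeks old and the prenephritic ones 16 weeks, so nephritis and age cannot be told apart in that comparison. The same holds for NZM2410, where the prenephritic kidneys were titled young. For NZW/BXSB no ages were given.

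Nephritic NZB/W kidneys at 36 weeks had 14 collagens higher and 3 lower than the prenephritic kidneys at 16 weeks, of 39. These 17 make 43.6% of the collagens, against 26.3% of all genes called in that comparison, of which 11% were higher and 15.3% lower. The rises took in 4 of 11 fibrillar, 3 of 8 basement membrane and 7 of 20 other collagens, and the 3 falls were all type IV chains. The median change was 0.07 over the collagens and -0.01 over all genes. Of the 39 collagens, 26 had a change above 0, and 22 did not pass. No collagen had groups without overlap, against 2.23% of all genes. With the 3′ minus 5′ signal of the Gapdh controls, a measure of RNA quality, as a covariate, 4 of the 17 calls remained.

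In NZW/BXSB, 17 collagens were higher and 1 lower in nephritic than in prenephritic kidneys. These 18 make 46.2% of the collagens, against 20.1% of all genes, of which 11.4% were higher and 8.73% lower. The rises covered 6 fibrillar, 4 basement membrane and 7 other collagens, and 15 of the 39 collagens had groups that did not overlap, against 8.41% of all genes. In NZM2410, 2 collagens were higher and 4 lower, 15.4% of the collagens against 25.3% of all genes, of which 11.4% were higher and 13.8% lower. Here 5 collagens had groups without overlap, fewer in proportion than the 17.8% of all genes. Col18a1 was the 1 collagen that rose in all 3 strains, and no collagen fell in all 3.

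**Figure D1:**
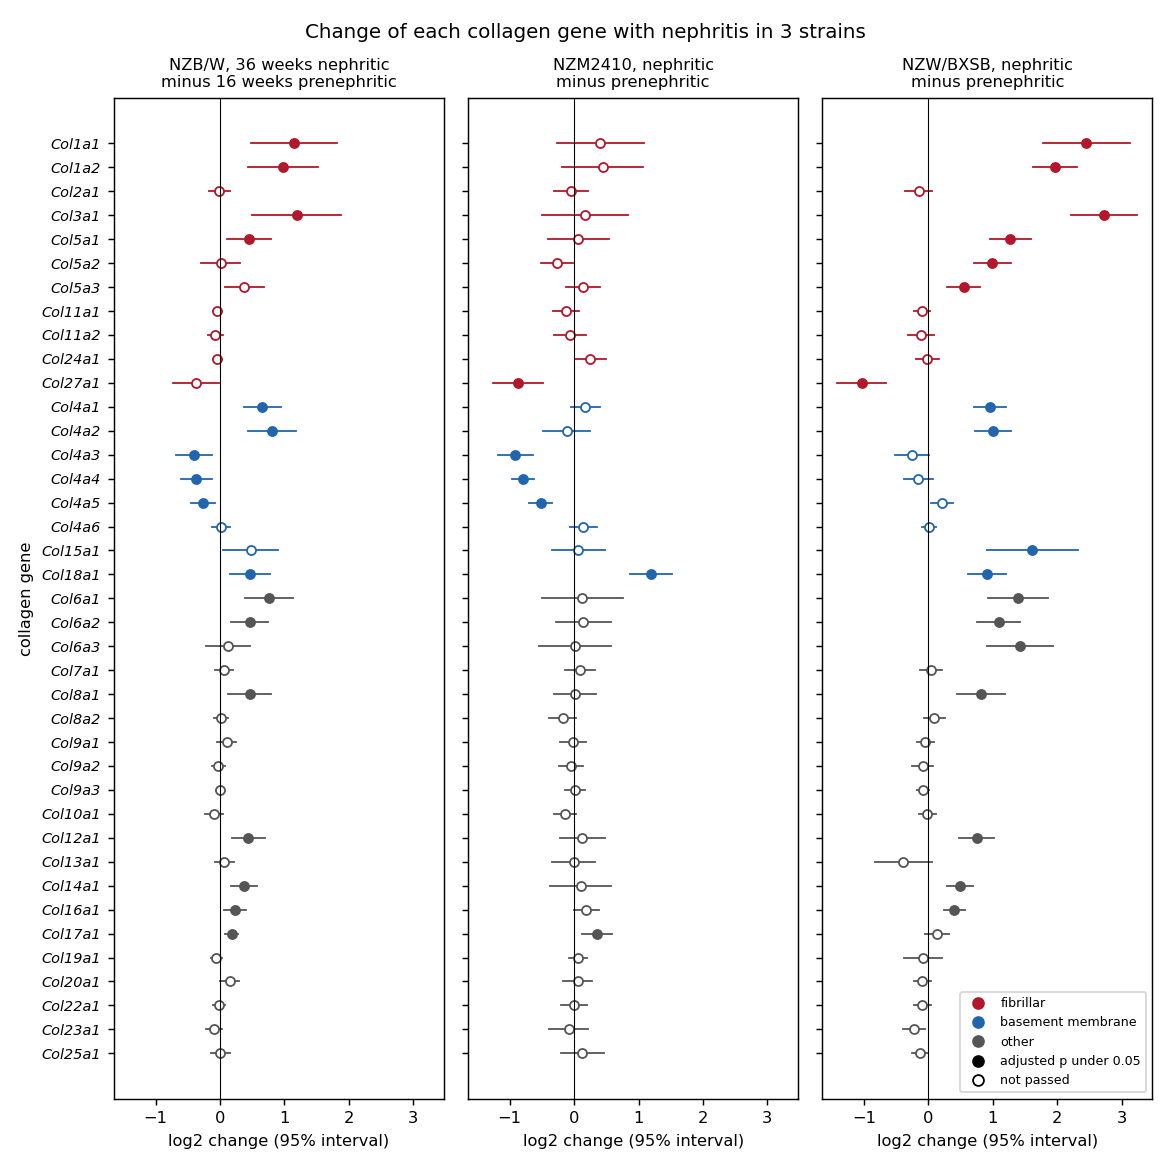
Change of each of the 39 collagen genes, nephritic minus prenephritic, in the 3 strains. The x axis is the log2 change with its 95% interval, colours give the class and filled points passed an adjusted p of 0.05. Filled points on the right number 14 for NZB/W, 2 for NZM2410 and 17 for NZW/BXSB, and on the left 3, 4 and 1.

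Among the fibrillar collagens, Col3a1, Col1a1 and Col1a2 had the largest rises in NZB/W and NZW/BXSB. Col3a1 had log2 levels of 9.14, 10.47 and 12.05 (lowest, median, highest) in 36-week nephritic kidneys, against 8.76, 9.27 and 9.89 in 16-week kidneys. Of the 10 nephritic kidneys 6 lay above every 16-week kidney, and the other 4 lay within their range. The change was 1.19 ± 0.34 (adjusted p = 0.00862 from limma).

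Col1a1, the main chain of type I collagen, showed the same spread among the nephritic kidneys. Its levels were 7.15, 8.06 and 10.13 at 36 weeks and 6.82, 7.0 and 7.70 at 16 weeks. The same number of nephritic kidneys, 6 of 10, exceeded all 16-week kidneys, with a change of 1.15 ± 0.33 (adjusted p = 0.00943 from limma). The SD was 1.04 at 36 weeks and 0.30 at 16 weeks, so the nephritic kidneys ranged from within the 16-week levels to far above them. Col1a2 rose by 0.98 ± 0.27, and Col5a1, a chain of type V collagen that helps start fibres, rose by 0.45 ± 0.17. The remaining 7 fibrillar genes did not pass, with changes between -0.38 for Col27a1 and 0.38 for Col5a3.

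In NZW/BXSB the same fibrillar genes separated the groups. Col3a1 levels were 11.95, 12.13 and 12.88 in nephritic kidneys and 9.02, 9.33 and 10.61 in prenephritic kidneys, without overlap. The change of 2.73 ± 0.24, which is 6.63-fold, was the largest of any collagen in the 3 strains (adjusted p = 8.76e-05 from limma). Col1a1 levels were 9.72, 10.44 and 11.24 in nephritic kidneys and 7.12, 7.94 and 9.06 in prenephritic kidneys, again without overlap, and it rose by 2.45 ± 0.31. Col1a2 rose by 1.97 ± 0.16, Col5a1 by 1.27 ± 0.15, Col5a2 by 0.99 ± 0.13 and Col5a3 by 0.55 ± 0.12. Of the prenephritic kidneys, replicate 4 was the highest for both Col3a1 and Col1a1.

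In NZM2410 these genes did not separate. Col3a1 stood at 10.05, 11.59, 11.73, 10.86 and 11.39 in nephritic kidneys and at 11.16, 11.61, 10.41, 10.66 and 10.93 in prenephritic kidneys. The groups overlapped, and the lowest level of all 10 kidneys was that of nephritic replicate 1. The change was 0.17 ± 0.31 (adjusted p = 0.763 from limma), with a 95% interval of -0.50 to 0.84. Col1a1 stood at 7.99, 8.79, 9.60, 8.32 and 9.50 in nephritic kidneys and at 8.68, 8.98, 7.93, 8.08 and 8.48 in prenephritic kidneys, with a change of 0.41 ± 0.31 that did not pass (interval -0.26 to 1.08).

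Col27a1, a fibrillar chain of cartilage and other tissues, was the fibrillar gene that fell. In NZM2410 it stood at 8.44, 8.02, 8.22, 8.42 and 7.34 in nephritic kidneys, against 9.13, 8.92, 8.85, 8.93 and 9.0 in prenephritic kidneys. Every nephritic kidney was below every prenephritic one, and the change was -0.88 ± 0.18 (adjusted p = 0.00359 from limma). In NZW/BXSB the levels were 7.80, 8.72 and 9.10 in nephritic and 9.48, 9.71 and 9.82 in prenephritic kidneys, again without overlap, with a change of -1.04 ± 0.18. In NZB/W the change at 36 weeks was -0.38 ± 0.18 and did not pass (adjusted p = 0.114 from limma), although 5 of 10 nephritic kidneys lay below all 16-week kidneys.

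**Figure D2:**
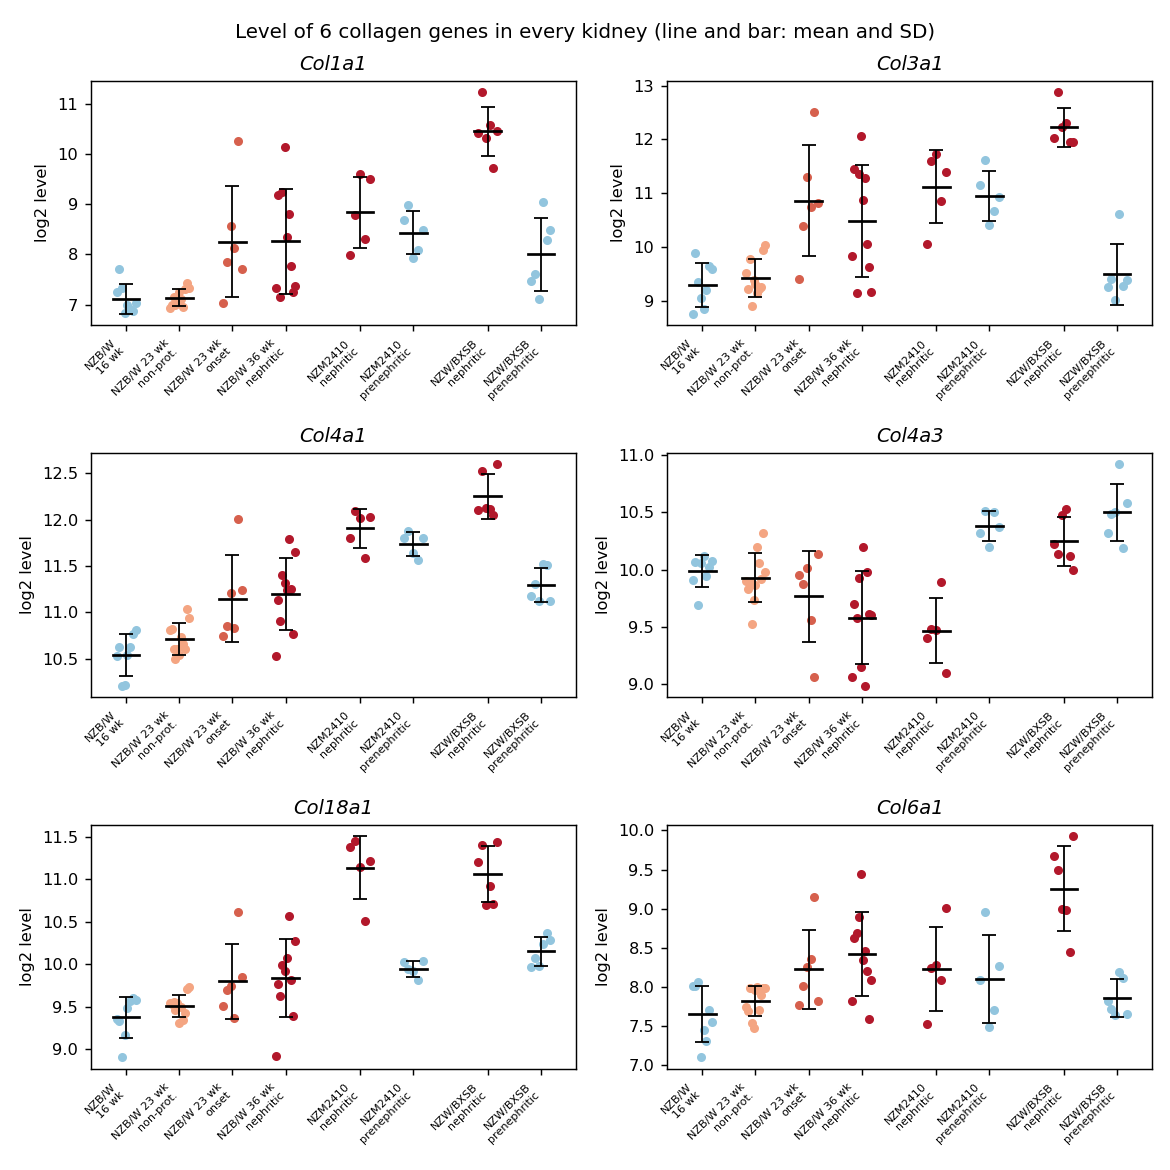
Log2 level of 6 collagen genes in each kidney, by group, on separate y axes, with the mean as a line and the SD as a bar. Col1a1 and Col3a1 of nephritic NZW/BXSB kidneys lie above all prenephritic ones, whereas those of nephritic NZM2410 kidneys overlap them, and Col18a1 is higher in nephritic kidneys of all 3 strains.

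The basement membrane collagens moved in both directions in NZB/W. Col4a1, the alpha 1 chain of type IV, had levels of 10.53, 11.25 and 11.79 at 36 weeks and 10.21, 10.58 and 10.80 at 16 weeks. Of the nephritic kidneys 8 of 10 were above all 16-week kidneys, and the rise was 0.66 ± 0.14 (adjusted p = 0.000865 from limma). Its partner chain Col4a2 had levels of 8.52, 9.85 and 10.63 at 36 weeks and 8.68, 9.01 and 9.21 at 16 weeks, with 8 of 10 above and 1 below all 16-week kidneys, and rose by 0.80 ± 0.18. Of the chains of the glomerular network, Col4a3 had levels of 8.98, 9.61 and 10.19 at 36 weeks and 9.69, 10.04 and 10.12 at 16 weeks. Here 6 of 10 nephritic kidneys lay below and 1 above the 16-week range, and the change was -0.41 ± 0.14 (adjusted p = 0.0271 from limma). Col4a4 fell by 0.37 ± 0.12 and Col4a5 by 0.27 ± 0.09, while Col4a6, a chain of other epithelial basement membranes, had a change of 0.01 ± 0.07 that did not pass.

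In NZM2410 kidneys the falls of type IV chains were called and rises were not. Col4a3 stood at 9.40, 9.48, 9.47, 9.89 and 9.09 in nephritic kidneys, against 10.32, 10.51, 10.20, 10.51 and 10.37 in prenephritic kidneys. The groups did not overlap, and the change was -0.91 ± 0.13, a level 0.531 times that of prenephritic kidneys (adjusted p = 0.000504 from limma). Col4a4 fell by 0.79 ± 0.08 and Col4a5 by 0.52 ± 0.08, both without overlap. Col4a1 stood at 11.80, 12.09, 12.02, 11.58 and 12.03 in nephritic kidneys and at 11.80, 11.87, 11.64, 11.56 and 11.80 in prenephritic kidneys. These groups overlapped, and neither Col4a1 (0.17 ± 0.10) nor Col4a2 (-0.12 ± 0.17) passed.

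In NZW/BXSB kidneys the rises were called and falls were not. Col4a1 levels were 12.05, 12.12 and 12.60 in nephritic and 11.12, 11.24 and 11.53 in prenephritic kidneys, and Col4a2 levels were 10.89, 11.14 and 11.74 in nephritic and 10.13, 10.18 and 10.47 in prenephritic kidneys. Both pairs of groups were apart, with rises of 0.96 ± 0.11 and 1.0 ± 0.13 (adjusted p = 0.000368 and 0.000489 from limma). Col4a3 levels were 9.997, 10.18 and 10.53 in nephritic and 10.19, 10.49 and 10.92 in prenephritic kidneys, overlapping, with a change of -0.25 ± 0.12 that did not pass (adjusted p = 0.157 from limma). Of the nephritic kidneys 3 of 6 lay below all prenephritic ones for Col4a3 and 0 lay above, so a smaller fall is not excluded. Col4a4 at -0.15 and Col4a5 at 0.21 did not pass either.

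The difference between Col4a1 and Col4a3 on the same array was computed after these values had been seen, as a description with no test. It was larger in nephritic kidneys by 1.07 in NZB/W at 36 weeks, 1.08 in NZM2410 and 1.21 in NZW/BXSB. These sizes follow from the changes of the 2 genes given above and add no support to them. The groups did not overlap in any of the 3 strains. The share of other gene pairs without overlap was not computed, so this is not read as a result. At proteinuria onset in NZB/W the difference was larger by 0.60 than in non-proteinuric kidneys, with overlap. These shifts show that the 2 chains changed unequally, not which of them changed.

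**Figure D3:**
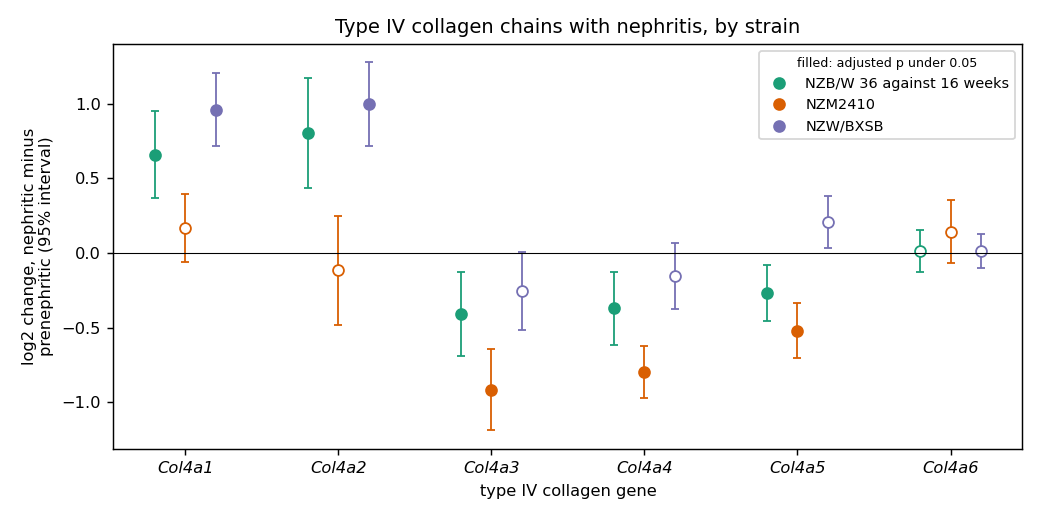
Log2 change of the 6 type IV collagen genes, nephritic minus prenephritic, with 95% intervals, by strain. Filled points passed an adjusted p of 0.05: Col4a1 and Col4a2 are above 0 in NZB/W and NZW/BXSB, and Col4a3, Col4a4 and Col4a5 are below 0 in NZB/W and NZM2410.

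Markers of podocytes, which make the alpha 3, 4 and 5 chains of the glomerular basement membrane, were lower in the same NZM2410 kidneys. Of these markers 6 of 10 fell and 0 rose, with a median change of -0.47, where 13.8% of all genes were lower. Markers of other cells fell in these kidneys too, 6 of 10 for endothelium (median change -0.52) and 8 of 8 for the proximal tubule (median change -0.97). For the distal nephron 2 of 7 fell and 0 rose (median change -0.07). The mean level of the 10 podocyte markers ran from 7.38 to 7.88 in nephritic kidneys and from 8.0 to 8.22 in prenephritic kidneys. In NZB/W at 36 weeks 2 of 10 podocyte markers fell and 1 rose, with means of 7.34 to 8.07 against 7.61 to 7.98 at 16 weeks, and in NZW/BXSB 2 of 10 fell, with means of 8.24 to 8.61 in nephritic and 8.34 to 8.66 in prenephritic kidneys. Proximal tubule markers fell for 8 of 8 genes in NZB/W at 36 weeks and for 3 of 8 in NZW/BXSB. Distal nephron markers fell for 5 of 7 genes in NZB/W at 36 weeks and for 3 of 7 in NZW/BXSB. Of all genes, 15.3% were lower in NZB/W at 36 weeks and 8.73% in NZW/BXSB. The part of any of these cell types in the fall of the type IV chains was not tested.

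Col18a1, whose protein is a basement membrane proteoglycan and the source of endostatin, rose in every strain. In NZM2410 it stood at 11.38, 11.45, 11.15, 10.50 and 11.21 in nephritic kidneys, against 10.03, 9.94, 9.92, 9.81 and 10.03 in prenephritic kidneys. The groups did not overlap, and the rise of 1.19 ± 0.15 was 2.28-fold (adjusted p = 0.000324 from limma). In NZW/BXSB the levels were 10.70, 11.06 and 11.43 in nephritic and 9.96, 10.15 and 10.37 in prenephritic kidneys, also apart, with a rise of 0.91 ± 0.14. In NZB/W they were 8.91, 9.87 and 10.57 at 36 weeks and 8.90, 9.42 and 9.60 at 16 weeks, overlapping, with a rise of 0.46 ± 0.15 (adjusted p = 0.0221 from limma). That NZB/W call was lost without 16-week replicate 3, at an adjusted p of 0.0552 from limma, without 16-week replicates 1 to 3 together (0.119) and with the 2 groups fitted alone (0.0600).

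Col15a1, the near relative of Col18a1, rose in NZW/BXSB alone among the tests run. Its levels were 7.98, 9.05 and 9.89 in nephritic and 6.78, 7.16 and 8.26 in prenephritic kidneys, overlapping by 1 nephritic kidney, and it rose by 1.62 ± 0.33 (adjusted p = 0.00490 from limma). In NZM2410 it stood at 7.18, 8.19, 8.20, 7.93 and 8.08 in nephritic and at 7.82, 8.13, 7.62, 7.60 and 8.08 in prenephritic kidneys. These overlapped, with a change of 0.07 ± 0.19. In NZB/W the change at 36 weeks was 0.47 ± 0.21 and did not pass (adjusted p = 0.0981 from limma).

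Among the other collagens, Col6a1, a chain of type VI, which forms beaded filaments around cells, had the largest rise in NZB/W at 36 weeks. Col6a1 levels were 7.59, 8.40 and 9.44 in NZB/W kidneys at 36 weeks and 7.10, 7.63 and 8.07 at 16 weeks. Of the nephritic kidneys 8 of 10 were above all 16-week kidneys, and the rise was 0.77 ± 0.18 (adjusted p = 0.00225 from limma). In NZW/BXSB they were 8.45, 9.24 and 9.93 in nephritic and 7.64, 7.77 and 8.19 in prenephritic kidneys, apart. In NZM2410 Col6a1 stood at 7.53, 8.25, 8.28, 8.09 and 9.02 in nephritic and at 8.09, 8.95, 7.50, 7.71 and 8.27 in prenephritic kidneys, which overlapped, and the change of 0.13 ± 0.29 did not pass.

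Of the 3 main chains of type VI, 2 passed in NZB/W. Col6a2 rose by 0.46 ± 0.14 at 36 weeks, but Col6a3, the longest chain, had a change of 0.12 ± 0.17 that did not pass, with levels of 7.32, 8.29 and 9.20 at 36 weeks and 8.01, 8.18 and 8.45 at 16 weeks. In NZW/BXSB all 3 rose, Col6a1 by 1.39 ± 0.21, Col6a2 by 1.09 ± 0.15 and Col6a3 by 1.42 ± 0.24. Col6a3 levels there were 8.73, 9.36 and 10.15 in nephritic and 7.56, 7.74 and 8.61 in prenephritic kidneys, apart. In NZM2410 Col6a3 stood at 7.26, 8.69, 8.30, 8.47 and 8.71 in nephritic and at 8.33, 8.62, 7.90, 7.97 and 8.54 in prenephritic kidneys, overlapping, with a change of 0.01 ± 0.25.

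Col8a1, a network-forming collagen of vessels and basement membranes, had levels of 5.63, 6.67 and 7.34 in NZB/W at 36 weeks and 5.94, 6.15 and 6.33 at 16 weeks, and rose by 0.46 ± 0.17 (adjusted p = 0.0373 from limma), with 8 of 10 nephritic kidneys above and 1 below the 16-week range. In NZW/BXSB its levels were 7.70, 7.89 and 8.54 in nephritic and 6.76, 7.12 and 7.78 in prenephritic kidneys, overlapping by 1 kidney, and it rose by 0.82 ± 0.17. The fibre-associated collagens Col12a1, Col14a1 and Col16a1 rose in both strains, by 0.44, 0.37 and 0.23 in NZB/W and by 0.75, 0.50 and 0.40 in NZW/BXSB. None of these 4 passed in NZM2410.

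Col17a1, a membrane-spanning collagen of epithelial anchoring junctions, was called in 2 strains at levels that the authors did not flag as expressed. It stood at 4.67, 4.43, 4.46, 4.29 and 4.23 in nephritic NZM2410 kidneys and at 3.92, 4.20, 4.16, 3.78 and 4.24 in prenephritic ones, overlapping by 1 kidney, with a change of 0.35 ± 0.11 (adjusted p = 0.0327 from limma). In NZB/W its levels were 4.12, 4.31 and 4.60 at 36 weeks and 4.03, 4.17 and 4.22 at 16 weeks, with a change of 0.18 ± 0.05. The remaining 12 other collagens, Col7a1, Col8a2, Col9a1, Col9a2, Col9a3, Col10a1, Col13a1, Col19a1, Col20a1, Col22a1, Col23a1 and Col25a1, did not pass in any of the 6 comparisons.

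Proteinuria onset at 23 weeks, against non-proteinuric kidneys of the same age, had 1 collagen higher and 0 lower. That is 2.56% of the collagens, against 2.09% of all genes (1.71% higher), a share near the background. The gene was Col3a1, with levels of 9.40, 10.78 and 12.51 at onset and 8.90, 9.32 and 10.04 in non-proteinuric kidneys. Of the 6 onset kidneys 5 were above every non-proteinuric kidney, and the rise was 1.43 ± 0.36 (adjusted p = 0.0299 from limma). The call was lost when any of onset replicates 3, 4 and 5 or non-proteinuric replicates 4, 7 and 8 was left out, with adjusted p-values from limma of up to 0.178 and changes between 1.10 and 1.72. Onset replicate 5 was the highest kidney of its group for Col3a1, Col1a1 (10.26) and Col4a1 (12.01). Its array also had the highest 3′ minus 5′ signal of the Gapdh controls, 0.46 against -0.03 to 0.09 in the rest of the group. For the actin controls this signal was 1.40 against 0.68 to 0.97. With the Gapdh signal as a covariate the Col3a1 call was lost.

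Col1a1 showed a similar arrangement at onset without passing, with levels of 7.03, 7.99 and 10.26 at onset and 6.94, 7.11 and 7.42 in non-proteinuric kidneys. Its change was 1.12 ± 0.36 (adjusted p = 0.0848 from limma), and that of Col1a2 was 0.97 ± 0.29 (adjusted p = 0.0635 from limma). The changes of Col4a1 and Col4a2 were 0.44 ± 0.15 and 0.50 ± 0.20, and neither passed. In all, 13 of the 39 collagens had an unadjusted p under 0.05 at onset, as did 3202 of all 16475 genes. The mean signal of the spiked hybridization controls had a median of 10.26 at onset and 9.56 in non-proteinuric kidneys, with 10.03 to 10.61 against 9.40 to 9.92. With this signal as a covariate 9 collagens were called. The ranges do not overlap, so the part of this signal and that of onset cannot be told apart in that fit. The share of all genes called in it is not given here, so the count is not read as a result about collagens. Within the 1 title stem shared by 2 onset and 2 non-proteinuric kidneys, Col3a1 was higher at onset by 1.27.

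The other 2 NZB/W comparisons called no collagen. Non-proteinuric kidneys at 23 weeks differed from 16-week kidneys in 0 of 39 by limma, with 0.0182% of all genes called and 0.0364% without overlap. In that comparison 0 collagens had an unadjusted p under 0.05, against 963 of all 16475 genes. The largest collagen change was 0.30 ± 0.18 for Col4a2. Nephritic kidneys at 36 weeks differed from onset kidneys in 0 of 39 by limma, with 2.32% of all genes called (1.75% lower), and 4 of 39 collagens had an unadjusted p under 0.05, against 3936 of all 16475 genes. The smallest of those was for Col4a5, with a change of -0.29 ± 0.10 (adjusted p = 0.0908 from limma). Comparisons that share a group of NZB/W kidneys are not independent, and their changes are given side by side only.

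The responses of NZM2410 and NZW/BXSB differed for many collagens when the difference of their changes was itself tested. In NZM2410 the change was smaller or more negative for 15 of 39 collagens and larger for 0, 38.5% of the collagens against 5.53% of all genes, of which 3.59% were smaller and 1.94% larger. The largest differences, NZM2410 minus NZW/BXSB, were for Col3a1 at -2.56 ± 0.39, Col1a1 at -2.05 ± 0.44 and Col15a1 at -1.55 ± 0.38. The type V chains Col5a1 and Col5a2, all 3 type VI chains and 5 type IV chains, Col4a1 to Col4a5, were among the 15. For Col18a1 the difference was 0.28 ± 0.20 with an interval of -0.14 to 0.70, and for Col27a1 it was 0.16 ± 0.25 with an interval of -0.36 to 0.67. Neither passed.

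NZW/BXSB also differed from NZB/W, whose change was that of 36 against 16 weeks. Its change was higher for 6 collagens and lower for 0, Col3a1 by 1.54 ± 0.42, Col6a3 by 1.30 ± 0.29, Col1a2 by 0.99 ± 0.31, Col5a2 by 0.98 ± 0.20, Col5a1 by 0.82 ± 0.22 and Col4a5 by 0.47 ± 0.12, 15.4% of the collagens against 5.77% of all genes, 4.12% higher and 1.66% lower. NZM2410 differed from NZB/W for 1 collagen, Col4a2, at -0.92 ± 0.25 (adjusted p = 0.0432 from limma variances), which is 2.56% against 1.72% of all genes. The Col18a1 difference there, NZM2410 minus NZB/W, was 0.73 ± 0.21 and did not pass (adjusted p = 0.0655 from limma variances). The ages of the kidneys differ between strains or are not given, so strain and age cannot be told apart.

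**Figure D4:**
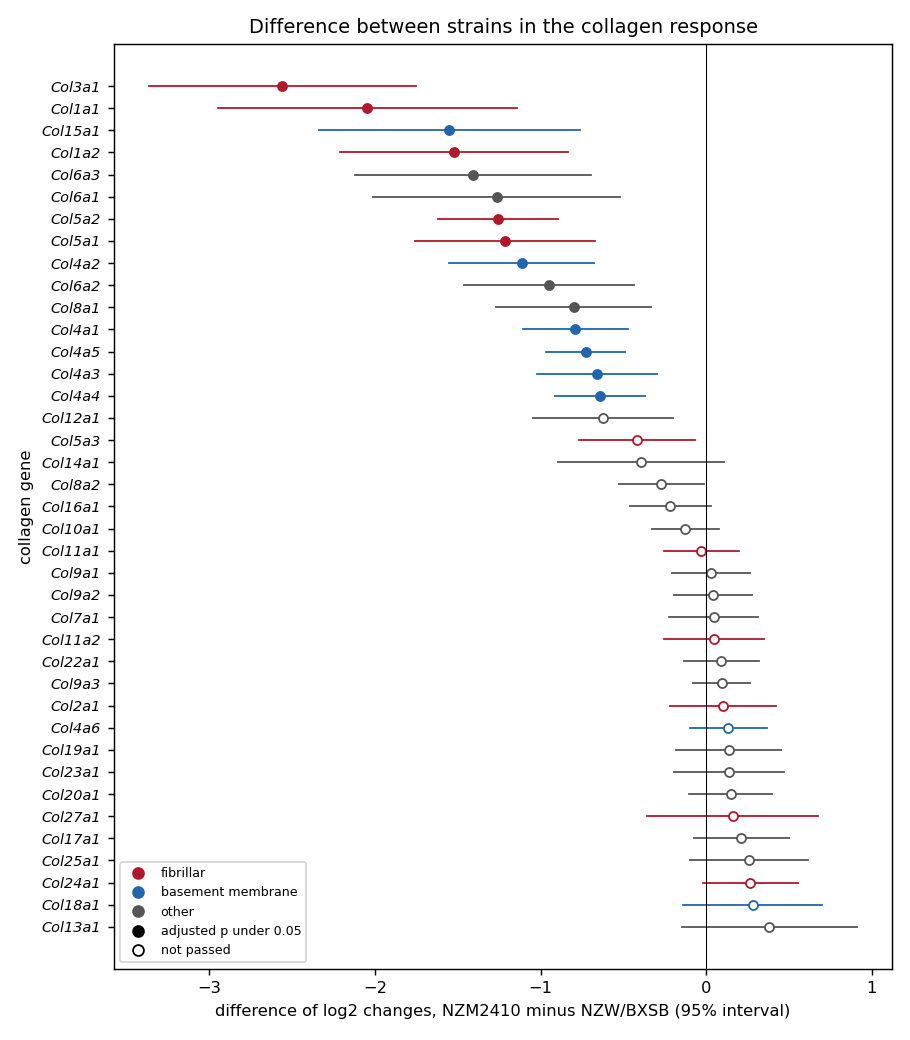
Difference between the log2 changes of NZM2410 and NZW/BXSB for each collagen gene, with 95% intervals, coloured by class. The 15 filled points passed an adjusted p of 0.05, and all lie below 0.

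Pairs of collagen chains were compared across the nephritic kidneys at 36 weeks (n = 10), and 3 of 5 pairs varied together with and without the 2 farthest kidneys. Over 10 relations, 5 pairs in each of 2 groups, Col1a1 and Col1a2 had Pearson's r = 0.97 and Spearman's rho = 0.92, with permutation p = 5e-05 (adjusted 0.000167) and p = 0.00046 (adjusted 0.00153). Col1a1 and Col3a1 had r = 0.97 (p = 5e-05 by permutation, adjusted 0.000167) and rho = 0.95 (p = 6e-05, adjusted 0.0003). Col4a1 and Col4a2 had r = 0.93 (p = 5e-05 by permutation, adjusted 0.000167) and rho = 0.96 (p = 4e-05, adjusted 0.0003). Without the 2 kidneys farthest from the median of the first gene, these 3 values of r were 0.93, 0.96 and 0.94. Col4a3 and Col4a4 had r = 0.76 (p = 0.0119 by permutation, adjusted 0.0238) and rho = 0.76 (p = 0.0155, adjusted 0.0325). Without those 2 kidneys r was 0.58 and did not pass (adjusted p = 0.271 by permutation). Leaving out the farthest kidneys narrows the range and lowers the number, so this does not show that the relation rested on them. Col4a5 and Col4a6 had r = 0.40 (p = 0.253 by permutation, adjusted 0.253) and rho = 0.13 (p = 0.729, adjusted 0.729), r being 0.69 without 2 kidneys.

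In the non-proteinuric kidneys at 23 weeks (n = 11) the same pairs were examined. There r was 0.67 for Col1a1 with Col1a2 (p = 0.025 by permutation, adjusted 0.0417; rho 0.54, adjusted 0.155), 0.61 for Col1a1 with Col3a1 (p = 0.0467, adjusted 0.0667; rho 0.52, adjusted 0.155) and 0.76 for Col4a1 with Col4a2 (p = 0.00634, adjusted 0.0158; rho 0.72, adjusted 0.0325). Without 2 kidneys these values were 0.24, 0.14 and 0.39, and none passed. The narrower range and lower number can weaken r here too, so this does not show that the relations rested on those kidneys. Col4a3 with Col4a4 had r = 0.42 (adjusted p = 0.221 by permutation) and Col4a5 with Col4a6 r = -0.45 (adjusted p = 0.199 by permutation). The difference between the 2 groups' correlations was not tested.

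Genes that fold, cleave and link collagen chains were counted next, to be read against the 26.3% of all genes called in NZB/W at 36 weeks, 25.3% in NZM2410 and 20.1% in NZW/BXSB. Of 12 genes for procollagen cleavage and crosslinking that were measured, 4 rose and 1 fell in NZB/W at 36 weeks, 4 rose and 0 fell in NZM2410, and 8 rose and 0 fell in NZW/BXSB, which is 41.7%, 33.3% and 66.7% of them. The largest were the crosslinking enzymes Lox (0.92) and Loxl1 (0.89) in NZB/W, Loxl2 (0.64) and Loxl1 (0.64) in NZM2410, and Loxl2 (0.84), Loxl1 (0.81) and Adamts2 (0.80), which removes the amino-terminal propeptide, in NZW/BXSB. Of 18 genes for folding and modification, 6 rose and 1 fell in NZB/W, 3 rose and 3 fell in NZM2410, and 6 rose and 2 fell in NZW/BXSB, which is 38.9%, 33.3% and 44.4%. P4ha1, a subunit of prolyl 4-hydroxylase, fell in all 3, by 0.45, 0.61 and 0.67. Fkbp10, a chaperone of collagen, rose by 0.37 in NZB/W and 0.67 in NZW/BXSB.

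Proteins that bind collagen fibres were counted in the same way. Of 15 small leucine-rich proteoglycans and fibril partners, 7 rose and 0 fell in NZB/W, with Bgn (0.93), Fn1 (0.92) and Fbn1 (0.74) foremost, and 7 rose and 1 fell in NZW/BXSB, with Fbn1 (1.48), Tnc (1.29) and Fn1 (1.27). In NZM2410 3 rose and 4 fell, with Dpt at -1.06, Aspn at -0.97 and Tnc at 0.73. The called shares of this list were 46.7%, 46.7% and 53.3% in NZB/W, NZM2410 and NZW/BXSB. Of 21 other basement membrane components, 5 rose and 4 fell in NZB/W. In NZM2410 3 rose and 5 fell, and in NZW/BXSB 7 rose and 0 fell, which is 42.9%, 38.1% and 33.3%. Changes in this list ran from -0.75 to 0.49 in NZB/W, from -0.71 to 0.75 in NZM2410 and from -0.14 to 1.23 in NZW/BXSB. Nidogen Nid1, which joins type IV collagen to laminin, rose by 0.49 in NZB/W and 0.69 in NZW/BXSB. Of 10 collagen receptors and uptake genes, 4, 5 and 6 rose in NZB/W, NZM2410 and NZW/BXSB and 0 fell, which is 40%, 50% and 60%, and Lair1 rose by 0.48, 0.67 and 0.58. At onset, 3 genes of these lists passed, Sparc (0.75), Nid1 (0.59) and Frem1 (0.46), and all were higher. That is 6.67% of the fibril partner list and 9.52% of the other basement membrane list, against 2.09% of all genes. The other lists had 0%.

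Markers of fibroblasts and pericytes went in both directions. Of 11 such markers, 4 rose and 1 fell in NZB/W at 36 weeks, 4 rose and 1 fell in NZM2410 and 4 rose and 0 fell in NZW/BXSB, with median changes of 0.15, 0.10 and 0.15. The called shares of these markers were 45.5%, 45.5% and 36.4%, against 26.3%, 25.3% and 20.1% of all genes. Their mean level ran from 7.39 to 8.02 at 36 weeks and 7.37 to 7.68 at 16 weeks in NZB/W, from 7.49 to 8.09 in nephritic and 7.44 to 7.73 in prenephritic NZM2410 kidneys, and from 8.33 to 8.74 in nephritic and 8.01 to 8.28 in prenephritic NZW/BXSB kidneys. Tagln, a contractile protein, rose by 0.51, 1.32 and 0.95 in the 3 strains and Thy1 by 0.95, 1.02 and 1.05. These rises include NZM2410, where Col1a1 and Col3a1 did not pass. Which cells held the Tagln and Thy1 RNA was not tested, so their rises do not show more fibroblasts or pericytes. The markers that fell, named after their values were seen, were Myh11 in NZB/W at -0.40 and Tcf21 in NZM2410 at -0.89. Mononuclear phagocyte markers rose for 12 of 12, 11 of 12 and 12 of 12 genes. Their mean level ran from 8.16 to 9.81 at 36 weeks and 7.10 to 7.60 at 16 weeks in NZB/W, from 8.30 to 9.17 in nephritic and 6.90 to 7.24 in prenephritic NZM2410 kidneys, and from 9.08 to 9.78 in nephritic and 7.54 to 8.67 in prenephritic NZW/BXSB kidneys. The part of either cell type in the collagen changes was not tested.

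Many calls in NZB/W at 36 weeks were lost in fits with other terms. The 3′ minus 5′ signal of the Gapdh controls had a median of 0.21 at 36 weeks and -0.03 at 16 weeks, with -0.05 to 0.57 against -0.08 to 0.14. The actin controls did not show this rise, with a median 3′ minus 5′ signal of 0.79 at 36 weeks and 0.85 at 16 weeks. The Gapdh signal thus differed between the groups. Its part and that of nephritis cannot be fully told apart in a fit with it as a covariate. In that fit Col3a1 had a change of 0.98 (adjusted p = 0.0761 from limma) and Col1a1 one of 0.87 (adjusted p = 0.105 from limma). The 4 calls that remained in that fit were Col4a1, Col4a2, Col18a1 and Col6a1. With title stems as a random block 7 remained, Col14a1, Col18a1, Col1a2, Col3a1, Col4a1, Col4a2 and Col6a1. With 1 kidney of the 16-week or 36-week groups left out in turn, the call was kept in 17 of 18 fits for Col18a1, 14 for Col4a3, 11 for Col4a5, 9 for Col16a1, 8 for Col8a1 and 7 for Col5a1, and in all 18 for the other 11 genes. In NZW/BXSB, where the Gapdh medians were -0.08 in nephritic and -0.12 in prenephritic kidneys, all 18 calls remained under every setting and with each kidney left out in turn. Of the 6 calls in NZM2410, 5 likewise remained throughout, the exception being Col17a1. Within the 2 title stems that held 1 nephritic and 1 prenephritic NZW/BXSB kidney each, Col3a1 was higher in the nephritic kidney by 1.34 and 3.49, and Col1a1 by 0.66 and 2.74.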

How the data were processed

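Total RNA of whole kidneys was labelled and hybridized to Affymetrix arrays, per the labels' protocols. The deposited values are log2 expression levels, and RMA (background correction, normalization between arrays and probe summary) is named in the submitters' processing notes, with no version. The sources used here do not name the array type, probe set definitions or genome build. Each strain has a table of 16539 rows, 16475 genes and 64 array controls. The controls were left out of the tests, and the series-wide table held the same values in the 16536 to 16539 matched rows (largest difference 0). RMA compresses differences of dim genes. For arrays, the number of arrays limits the precision.

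The members, classes and gene lists were chosen with earlier results of these data known. No filter was applied to the deposited values. Group means were fitted in each strain table separately by limma 3.58.1 (lmFit, eBayes) under R 4.3.3, and p-values were adjusted by Benjamini-Hochberg across all genes. The difference of 2 strains' changes was tested from the sum of their moderated variances, using Satterthwaite degrees of freedom, with the same adjustment. Correlations used 100000 permutations, two-sided, in scipy 1.17.1. Fits were tested on simulated data. Kidneys given by sample were those of the 2 collagens of each class with the largest change among the called ones in the 36-week, onset, NZM2410 and NZW/BXSB comparisons, 12 in all. Other genes named are up to 3 of each list with the largest changes among those called. The value of 1 such gene is not reported here. No 2 arrays of a table were identical (highest correlation 0.998). Replicate numbers were checked as pairs: of 5 to 8 same-numbered pairs per comparison, 1 to 3 had correlated deviations over 0.1, so numbers were not taken as pairing. Alternatives were quantile normalization, a filter on low levels, a trended prior, array weights, replicate and title stem blocks, control signals as covariates, and samples left out. In the tables, 3 further genes are collagens by RefSeq under other names, Dvwa (Col6a4), Emid2 (Col26a1) and Gm7455 (Col6a5), and none passed in any comparison.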

Additional observations from a re-analysis of the deposited data

Results flagged for a closer look

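In 84 sets of values, 12 collagens in 7 groups of 5 to 10 kidneys, 4 held a kidney far from the others of its group by Dixon's test, and chance gives about 1 in 20. Col3a1 stood at 10.61 in prenephritic NZW/BXSB replicate 4, against 9.40 in the next highest kidney. Col8a1 stood at 7.56 in onset replicate 5, against 6.61 in the next. In nephritic NZM2410 replicate 1, Col15a1 stood at 7.18 and Col6a3 at 7.26, against next lowest values of 7.93 and 8.30. The causes were not tested.

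The change from prenephritic to nephritic kidneys differed between strains by a test of the difference for 22 pairs of a collagen and 2 strains. NZM2410 minus NZW/BXSB gave -2.56 for Col3a1, -2.05 for Col1a1, -1.55 for Col15a1, -1.52 for Col1a2, -1.41 for Col6a3, -1.27 for Col6a1, -1.26 for Col5a2, -1.21 for Col5a1, -1.11 for Col4a2, -0.95 for Col6a2, -0.80 for Col8a1, -0.79 for Col4a1, -0.73 for Col4a5, -0.66 for Col4a3 and -0.64 for Col4a4. NZW/BXSB minus NZB/W gave 1.54 for Col3a1, 1.30 for Col6a3, 0.99 for Col1a2, 0.98 for Col5a2, 0.82 for Col5a1 and 0.47 for Col4a5, and NZM2410 minus NZB/W gave -0.92 for Col4a2.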

How the results depend on the processing

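The 36-against-16-week comparison, with 17 collagens called, gave 7 with title stems as a random block and 4 with the Gapdh signal as a covariate, and 12 to 20 under the other settings. The onset comparison, with 1 called, gave 0 after quantile normalization, with the stem block and with the Gapdh covariate, 9 with array weights, 9 with the hybridization control covariate and 5 with the 2 groups alone. Array weights gave 4 collagens for 23 against 16 weeks, 1 for 36 weeks against onset and 11 in NZM2410, where 6 had been called. Shares of all genes called under other settings are not given here, so these counts have no background beside them. With replicate numbers as a block, although the numbers did not pair the samples, the counts were 19, 0, 0, 1, 5 and 18 in the 36-week, onset, 23-week, 36-week-against-onset, NZM2410 and NZW/BXSB comparisons. With 1 sample left out they ranged from 12 to 18, 0 to 4, 0 to 0, 0 to 2, 5 to 7 and 18 to 20, and for the strain differences from 0 to 4 (NZM2410 minus NZB/W), 5 to 9 (NZW/BXSB minus NZB/W) and 11 to 16 (NZM2410 minus NZW/BXSB). Without 16-week replicates 1 to 3 together, chosen after seeing the data, NZM2410 minus NZB/W gave 2. Correlations without 2 kidneys fell below the threshold for Col4a3 with Col4a4 at 36 weeks (0.58) and, in non-proteinuric kidneys, for Col1a1 with Col1a2 (0.24) and Col4a1 with Col4a2 (0.39). For the 12 collagens given by sample, 595 of 630 changes under other settings kept their side of the threshold. With 1 sample left out 1074 of 1104 did. None reversed among called ones, but changes that did not pass could switch sign and were still counted as kept. An example is Col8a1 in NZM2410, at -0.11 to 0.11 with 1 sample left out. The title stem block was not run for NZM2410, where 1 stem was shared within 1 group, nor the blocks for strain differences. The causes were not tested. Signal near background limits the 9 collagens not flagged as expressed in NZB/W.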
